A study of Mus musculus with 8 samples.

Results

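The genes described here encode 6 matrix metalloproteinases (Mmp2, Mmp3, Mmp9, Mmp13, Mmp14 and Mmp19) and the 4 tissue inhibitors of metalloproteinases (Timp1, Timp2, Timp3 and Timp4). They were taken by gene symbol, 10 of the 55276 symbols in the deposited tables, and not by any measured value. RNA had been sequenced from GFP+ fibro-adipogenic progenitors (FAPs), the mesenchymal progenitors that lie between muscle fibers, which were FACS-sorted from the freeze-injured tibialis anterior muscle of mice aged 4 to 6 months. There were 8 libraries, 2 of each genotype at 3 and at 7 days post injury (dpi). Controls were Osr1 flox/+ CAGG Cre+ and the conditional knockouts (Osr1cKO) were Osr1 flox/flox CAGG Cre+, so that controls also carried the Cre and 1 floxed allele of Osr1, the gene of a zinc finger transcription factor. The GFP of the sort is made from a floxed Osr1 allele once recombined, so that the gate took cells in which the Osr1 locus was active. All mice received tamoxifen from the day of injury, and the tamoxifen-inducible Cre is driven ubiquitously, so that cells other than FAPs could recombine as well. A 3 dpi library held RNA from 1 mouse and a 7 dpi library that of 4 mice pooled, and day and pooling therefore cannot be told apart. The methods also name a pair of instruments and read lengths. If these went by day, they cannot be told apart from it either.

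Matrix metalloproteinases (MMPs) are zinc-dependent endopeptidases that are secreted or held at the cell surface and cut collagens, other matrix proteins, growth factor carriers and cytokines. Most are made as inactive proenzymes, and the TIMPs bind the active site of the mature enzymes. Membrane-bound MMP14, held with pro-MMP2 through TIMP2, activates MMP2, so that TIMP2 serves both as an inhibitor and as a part of an activating complex. Fibroblast-like cells are a main source of MMP2, MMP14, TIMP1 and TIMP2 in healing tissue, while MMP9 is also a well-known product of neutrophils and macrophages.

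The family is partly clustered in the genome, and the sequence at the gene starts divided along the same line. In GENCODE annotation of GRCm38, the assembly of mm10, 10 Mmp genes lay within 427 kb of chromosome 9, among them Mmp13 (7272514 to 7283331), Mmp3 (7445822 to 7455975) and Mmp10, the gene of stromelysin-2. RefSeq start windows of 300 bases (250 before the start and 50 after it, GRCm38.p6) were at hand for 7 of the 10 genes described here and for 22 of 27 Mmp and Timp genes. Entries were missing for Mmp2, Mmp9 and Mmp19. The windows were searched on both strands for TGANTCA, a site of AP-1 factors, for TATAAA, the TATA box, and for GGGCGG, a GC box. These matches do not overlap one another, and a match is a description of letters and not of a bound site. The 120 bases before the start are shown for the 3 cluster genes of highest mean level and, for contrast, for Mmp14 and Timp1. All 5 lie on the plus strand, at chr9:7272394-7272513 for Mmp13, chr9:7445702-7445821 for Mmp3, chr9:7502222-7502341 for Mmp10, chr14:54431478-54431597 for Mmp14 and chrX:20870046-20870165 for Timp1. Capitals mark TGANTCA and TATAAA, and in Mmp14 and Timp1 the GGGCGG matches, which in Timp1 lie on the opposite strand.
Mmp13: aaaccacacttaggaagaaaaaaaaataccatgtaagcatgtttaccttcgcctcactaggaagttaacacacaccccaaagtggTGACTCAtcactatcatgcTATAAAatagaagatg
Mmp3: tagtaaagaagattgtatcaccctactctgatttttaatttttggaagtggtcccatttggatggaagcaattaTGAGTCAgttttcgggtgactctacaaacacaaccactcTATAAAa
Mmp10: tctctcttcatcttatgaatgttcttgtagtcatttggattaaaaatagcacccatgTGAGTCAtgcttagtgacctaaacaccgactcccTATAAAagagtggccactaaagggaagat
Mmp14: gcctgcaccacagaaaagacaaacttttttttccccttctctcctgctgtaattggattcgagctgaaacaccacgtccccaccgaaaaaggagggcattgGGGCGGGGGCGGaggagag
Timp1: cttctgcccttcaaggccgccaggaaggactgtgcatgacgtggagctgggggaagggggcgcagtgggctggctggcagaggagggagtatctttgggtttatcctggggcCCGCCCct

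Counting the base before the start as -1, the AP-1 motif began at -35 in Mmp13, at -46 in Mmp3 and at -63 in Mmp10, and a TATA box followed it at -16, -7 and -29. The same order was present in 8 of the 10 cluster genes, the exceptions being Mmp8 and Mmp27. A gene was counted if any of its windows held both. For Mmp12 only the downstream window did, and its TATA box began after the start, at base 5. None of the 12 family genes elsewhere in the genome that had a window held TGANTCA in it. The others elsewhere, Mmp9 among them, had no window. Variants of the motif were not searched for, such as TGAGTAA, which is present in the Timp1 window after the start. Of all 32851 RefSeq windows of this length, 7.81% held TGANTCA, 13.6% held TATAAA and 35.7% held GGGCGG, and 0.995% held both TGANTCA and TATAAA on the strand of the gene. The Mmp14 window held 2 abutting GC boxes and those of Timp1, Timp2 and Timp3 at least 1. Of the 8 genes that hold both motifs, Mmp7 and Mmp20 were listed at 0 TPM, a length-normalized share of all transcripts, in every library.

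**Figure D1:**
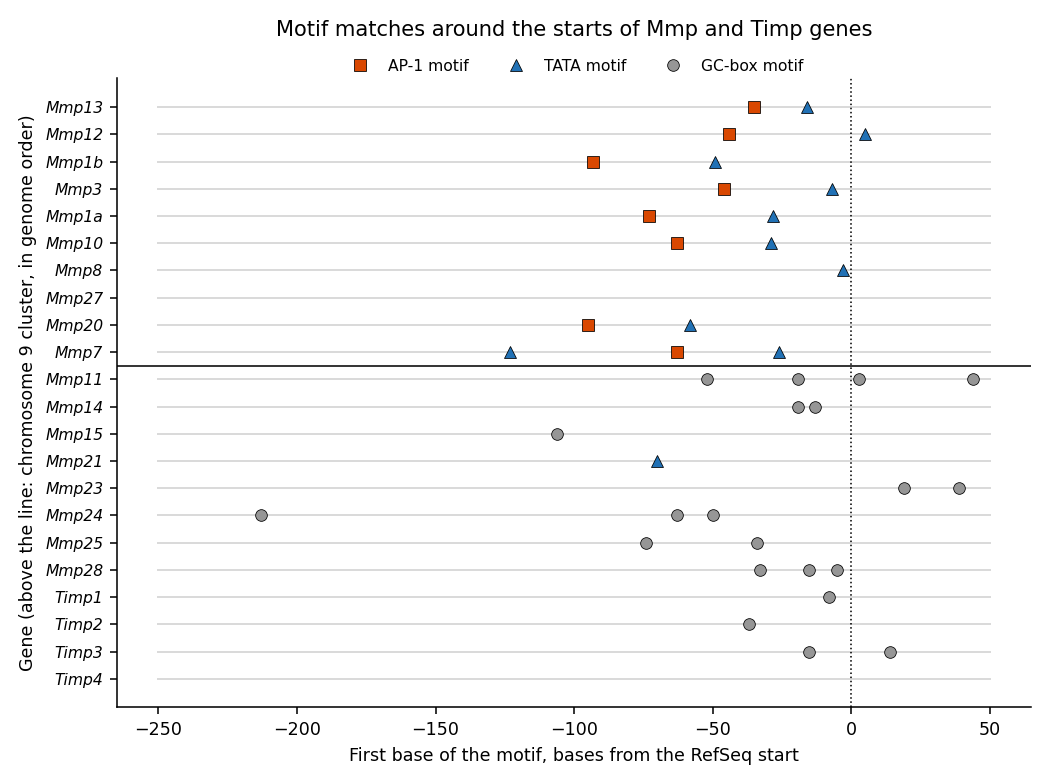
Position of motif matches (squares, AP-1; triangles, TATA; circles, GC box) in bases from the RefSeq start, 1 line per gene. The AP-1 squares are all above the horizontal line, in 8 of the 10 genes of the chromosome 9 cluster, and all circles are below it.

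The targeted gene was read first. Osr1 stood at 105 and 91.0 TPM in control and at 70.7 and 71.9 in Osr1cKO libraries at 3 dpi, and at 67.6 and 71.6 against 64.4 and 60.8 at 7 dpi. Osr1cKO libraries were below the controls at both days. The log2 fold change was -0.45 (SE 0.13, unadjusted p = 0.0165, adjusted p = 0.77 by limma) at 3 dpi and -0.28 (SE 0.08, adjusted p = 0.32 by limma) at 7 dpi. The first was no longer called without either Osr1cKO library (-0.46 and -0.43). Much transcript assigned to Osr1 as a whole gene thus remained in the libraries labelled Osr1cKO, and the deleted part was not analysed here. The study reports that the floxed exon was efficiently deleted in its RNA-seq data. By RT-qPCR it also reports a strong decrease of Osr1 mRNA in Osr1cKO FAPs at 3 dpi. Between 36516600 and 51096594 fragments per library were recovered from the deposited values, with 3 dpi libraries the deeper ones, and the 9 genes tested rested on 9 to 122826 fragments each. Summed TPM of 8 FAP markers was between 4651 and 8071 in the libraries, against 11.8 to 69.9 for 9 macrophage markers, 1.51 to 21.8 for 9 neutrophil markers and 0.162 to 5.92 for 8 lymphoid markers. The pan-leukocyte gene Ptprc stayed between 0.00834 and 0.216 TPM. The tenocyte list moved with day and genotype, its 6 genes having summed TPM of 578 and 815 in control and 1599 and 1831 in Osr1cKO at 3 dpi, and of 2417 to 2664 and 3177 to 3616 at 7 dpi. The first control library at 3 dpi stood apart from the second, with which its log2 values correlated at 0.966, against 0.984 to 0.986 within the other groups.

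At 3 dpi the family was dominated by an inhibitor. Timp1, which encodes a secreted inhibitor of most soluble MMPs, was highest of the 10 genes in both genotypes, followed by Mmp2, the gene of gelatinase A. In controls Mmp14, Timp2 and Mmp19 came next at 444 ± 85.4, 418 ± 6.37 and 418 ± 109 TPM (mean ± SD, n = 2) and could not be ranked, since their libraries overlapped. Mmp3, encoding stromelysin-1, followed at 157 ± 7.13 TPM, then Mmp9 (gelatinase B) and Timp3, the inhibitor that binds the matrix, whose libraries also overlapped, and Mmp13 (collagenase-3). Timp4 was barely detected at either day. It stood at 0.232 and 0.0533 TPM in controls and at 0.0134 and 0.0130 in Osr1cKO libraries at 3 dpi, and at 0.0472 and 0.123 against 0.0353 and 0.159 at 7 dpi. These values rest on 1 to 17 fragments a library, and Timp4 was not tested for that reason.

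By 7 dpi the order had turned. In controls Mmp2 led at 3106 ± 277 TPM, followed by Timp2, Mmp14, Timp1, Mmp3, Mmp19, Timp3, Mmp13, Mmp9 and Timp4, with no overlap between neighbours in this order. In Osr1cKO libraries Timp2 and Timp1 overlapped at ranks 2 and 3, and Mmp19 overlapped Mmp3 and Timp3 overlapped Mmp13. In all, the 10 genes made up 0.487% to 0.792% of all TPM.

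**Figure D2:**
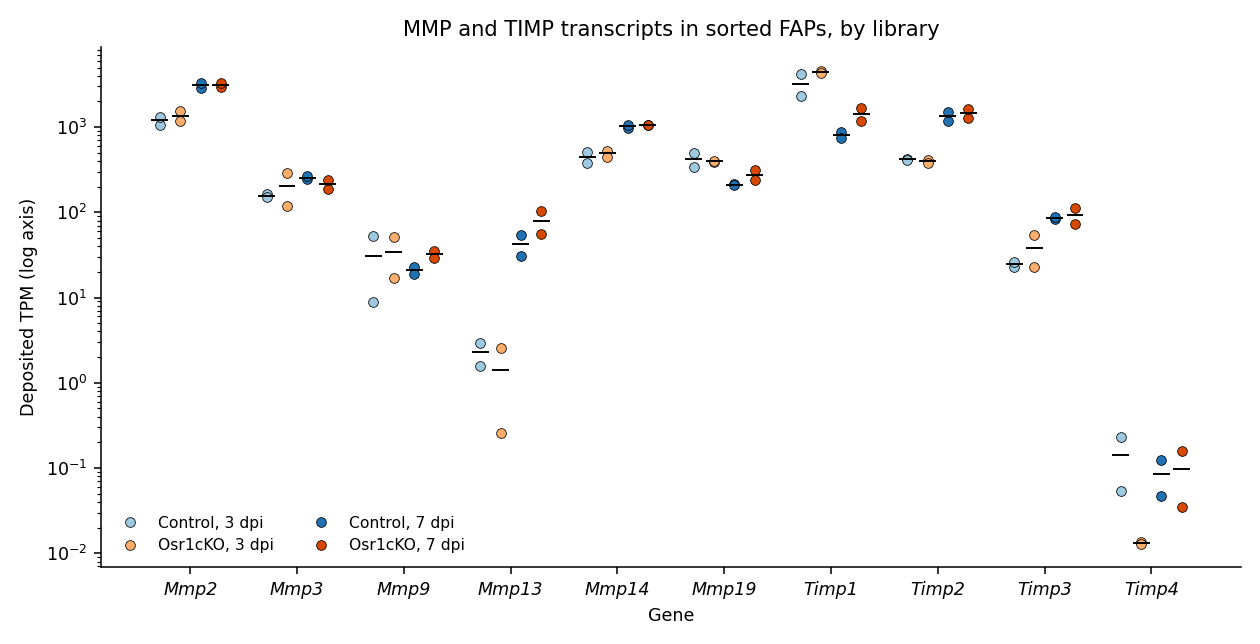
Deposited TPM (log axis) of the 10 genes, 1 point per library and a short line at the mean of each pair. Timp1 is the highest gene at 3 dpi and Mmp2 at 7 dpi, Mmp13 rises from 2.97 TPM or less to 31.0 TPM or more, and Timp4 stays under 0.24 TPM.

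The change from 3 to 7 dpi was read within each genotype. Of the 9 genes tested, 5 rose and 2 fell in controls, and the same 5 and 2 genes were called in Osr1cKO, by limma over all 8 libraries at a fold change over 1.2 and a Benjamini-Hochberg adjusted p under 0.05. By that rule 21.2% of 17371 genes tested rose and 24.0% fell in controls, and 17.4% rose and 23.5% fell in Osr1cKO, so that change between the days was common. The median log2 fold change was 1.28 over the 9 genes in controls and 0.999 in Osr1cKO, against 0.02 and -0.0047 over all genes tested. Fewer cells of a type and less RNA per cell cannot be told apart in such bulk samples. The tenocyte list given above moved with the day too, and summed myofiber markers stood at 6.07 to 11.5 TPM at 3 dpi and at 36.2 to 60.0 TPM at 7 dpi. Other lists moved with the day as well. From 3 to 7 dpi macrophage markers went from 11.8 to 21.7 TPM up to 45.8 to 69.9 TPM, lymphoid from 0.162 to 0.490 up to 0.887 to 5.92, endothelial from 17.2 to 44.7 up to 46.3 to 71.8, pericyte and smooth muscle from 32.8 to 53.7 up to 53.9 to 117, muscle stem cell from 5.52 to 7.76 up to 13.6 to 41.8 and erythroid from at most 1.47 up to 11.7 to 54.0 TPM. Neutrophil markers (1.51 to 4.25 and 4.07 to 21.8 TPM) and FAP markers overlapped between the days. Their part in these changes was not tested.

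Among the proteinases that rose, Mmp13 did so most. Its TPM was 1.59 and 2.97 in control and 2.57 and 0.257 in Osr1cKO libraries at 3 dpi, then 31.0 and 53.9 in control and 56.3 and 103 in Osr1cKO libraries at 7 dpi. Every 7 dpi library was far above every 3 dpi library. The log2 fold change was 3.77 (SE 0.54, adjusted p = 0.0017) in controls and 5.10 (SE 0.54, adjusted p = 9.1e-04) in Osr1cKO, on the scale of log2(TPM + 1), which understates the change of so low a gene.

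The pair of genes behind pro-MMP2 activation rose together with Mmp2 itself. Mmp2 went from 1066 and 1325 TPM in control and 1164 and 1528 in Osr1cKO libraries to 2910 and 3302 and to 2979 and 3335. Mmp14 went from 383 and 504 TPM in control and 531 and 452 in Osr1cKO libraries to 977 and 1057 and to 1053 and 1054. Timp2 went from 422 and 413 TPM in control and 414 and 381 in Osr1cKO libraries to 1194 and 1516 and to 1281 and 1617. For each of these genes the lowest 7 dpi library was above the highest 3 dpi library. Their log2 fold changes in controls were 1.46 (SE 0.22, adjusted p = 0.0022 by limma) for Mmp2, 1.28 (SE 0.18) for Mmp14 and 1.76 (SE 0.17) for Timp2, and in Osr1cKO 1.14, 0.999 and 1.75 with the same SE. Because they rose alike, the ratio of Mmp2 to Mmp14 TPM stayed between 2.19 and 3.38 in the 8 libraries. The ratio of Timp2 to Mmp14 was 0.778 to 1.10 at 3 dpi and 1.22 to 1.53 at 7 dpi.

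Timp3 rose as well, with less even libraries. It stood at 23.1 and 26.0 TPM in control and at 54.2 and 22.7 in Osr1cKO libraries at 3 dpi, and at 82.9 and 87.7 against 73.7 and 112 at 7 dpi. The first Osr1cKO library at 3 dpi stood far above the other 3 of that day. The log2 fold change was 1.83 (SE 0.38, adjusted p = 0.0071 by limma) in controls and 1.25 (SE 0.38, adjusted p = 0.034) in Osr1cKO, and the latter call was lost without the second Osr1cKO library of 3 dpi (0.62) and without the first or second of 7 dpi (1.53 and 0.997). It was also lost with the replicate block (1.25, adjusted p = 0.057), with no filter on low values (1.19) and in a fit on the 4 Osr1cKO libraries (1.29).

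Timp1 and Mmp19 ran the other way. Timp1 fell from 2304 and 4174 TPM in control and 4553 and 4335 in Osr1cKO libraries to 868 and 752 and to 1665 and 1194. The lowest 3 dpi library, a control, was still above the highest 7 dpi library, an Osr1cKO. The log2 fold change was -1.86 (SE 0.34, adjusted p = 0.0043 by limma) in controls and -1.76 (SE 0.34, adjusted p = 0.0063) in Osr1cKO, and without the second Osr1cKO library of 7 dpi the latter was -1.47 and no longer called. Mmp19, which encodes a widely expressed MMP of basement membranes, had 495 and 340 TPM in control and 392 and 402 in Osr1cKO libraries at 3 dpi, and 213 and 209 against 313 and 238 at 7 dpi. The groups did not overlap between the days, but the distance in Osr1cKO was small. The log2 fold change was -0.88 (SE 0.19, adjusted p = 0.0090 by limma) in controls and -0.64 (SE 0.19, adjusted p = 0.033) in Osr1cKO. The control call was lost without the second control library of 7 dpi (-0.85), and the Osr1cKO call without either 3 dpi library of that genotype (-0.65 and -0.64), without the second of 7 dpi (-0.39), with deposited TPM left unscaled (-0.54), with median scaling (-0.59), with a mean TPM of at least 1 (-0.55) and with no filter on low values (-0.70).

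Mmp3 and Mmp9 were not called in either genotype. Mmp3 had 162 and 152 TPM in control and 120 and 286 in Osr1cKO libraries at 3 dpi, and 246 and 265 against 187 and 238 at 7 dpi. Control libraries were higher at 7 dpi without overlap, with a log2 fold change of 0.77 (SE 0.34, adjusted p = 0.10 by limma), which passed the threshold when the 4 control libraries were fitted alone (0.75). In Osr1cKO the 3 dpi libraries enclosed those of 7 dpi, and the value was 0.08 (SE 0.34), or 0.69 and called without the second 3 dpi library and -0.52 and called without the first.

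**Figure D3:**
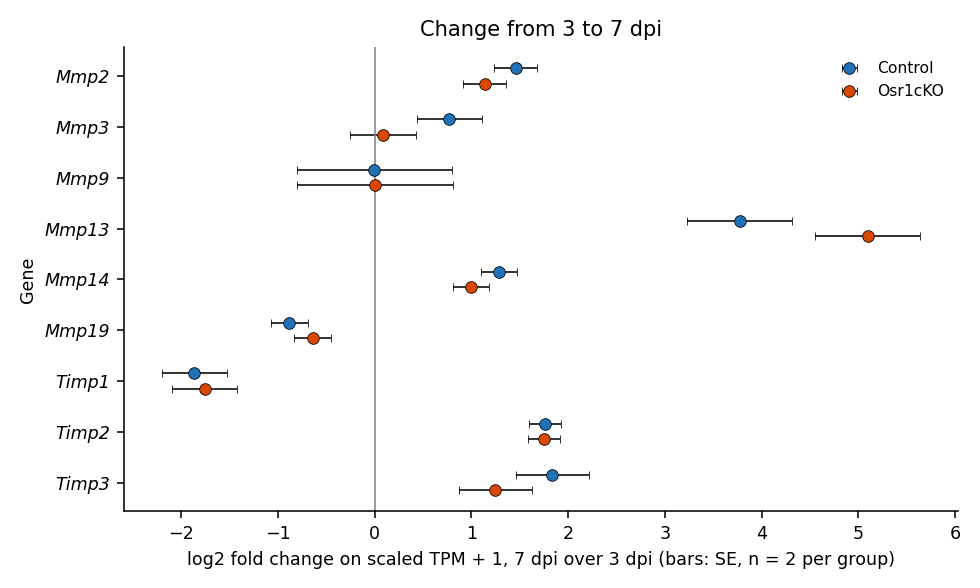
Log2 fold change of 7 over 3 dpi on scaled TPM + 1 for the 9 genes tested, in control and Osr1cKO (points; bars, SE; 2 libraries per group). Mmp13 lies far to the right, Mmp2, Mmp14, Timp2 and Timp3 between 0.999 and 1.83, Mmp3 and Mmp9 nearer 0 than these or with wide bars, and Timp1 and Mmp19 left of 0.

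Mmp9 differed widely between libraries of the same 3 dpi group. Its TPM was 8.85 and 53.3 in control and 51.7 and 16.8 in Osr1cKO libraries at 3 dpi, and 23.1 and 19.05 against 35.0 and 29.1 at 7 dpi. One library of each genotype was high and one low at 3 dpi, so that the genotypes overlapped fully. The SE of its log2 fold change between the days was 0.80, against a value of -0.0037 in controls and 0.0022 in Osr1cKO. The same 2 libraries of 3 dpi were high in genes of myeloid cells that were picked after their values were seen. Adgre1 (F4/80) had 0.0744, 0.558, 0.708 and 0.118 TPM in the order given for Mmp9, Tyrobp 0.602, 2.24, 1.90 and 0.572, and S100a9, of neutrophils and monocytes, 0.308, 1.66, 2.57 and 0.585. At the lowest these values rest on 3, 5 and 2 fragments. Of the macrophage list, Lyz2 (2.93, 6.93, 8.47 and 2.55 TPM) and C1qa (0.772, 1.44, 1.82 and 0.294) ran the same way. So did Ptprc (0.0263, 0.0515, 0.0475 and 0.00834) and, by little, Mrc1 (0.340, 0.382, 0.347 and 0.312). Not all genes of the same lists ran this way. Csf1r had 0.528, 0.776, 0.821 and 1.03 TPM. Cd68 had 15.4, 8.38, 7.42 and 6.87 TPM, Itgam 0.368, 0.156, 0.173 and 0.0912, and S100a8 0.347, 0.113, 0.228 and 0.990. The sum of the 9 macrophage markers did not follow that order, with 21.0, 20.9, 21.7 and 11.8 TPM, of which Cd68 made 15.4 in the first library. Nor did the sum of the 9 neutrophil markers, with 1.51, 2.28, 4.25 and 2.55, and Retnlg among these was listed at 0 in all 4 libraries. Their part in the level of Mmp9 was not tested.

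As Timp1 fell and Timp2 rose, the make-up of the inhibitor transcripts shifted. Timp1 held 83.8% and 90.5% of summed TIMP TPM in control and 90.7% and 91.5% in Osr1cKO libraries at 3 dpi, and 40.5% and 31.9% against 55.1% and 40.8% at 7 dpi. Timp2 took most of the rest, 8.05% to 15.4% at 3 dpi and 42.4% to 64.4% at 7 dpi. Timp1 was 5.46 to 11.4 times as abundant as Timp2 at 3 dpi and 0.496 to 1.30 times at 7 dpi, with the first Osr1cKO library the only one of 7 dpi above 1.

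The sum over the 6 proteinases was 2117 to 2684 TPM at 3 dpi and 4401 to 4997 TPM at 7 dpi, and that over the 4 inhibitors 2750 to 5021 and 2145 to 3020 TPM. Inhibitor transcripts exceeded proteinase transcripts in each 3 dpi library, with ratios of proteinase to inhibitor of 0.770 and 0.515 in control and 0.450 and 0.566 in Osr1cKO. At 7 dpi the ratio was 2.05 and 2.08 in control and 1.53 and 1.71 in Osr1cKO libraries, the latter both below the controls. That difference was not tested, and 53.5% of all single genes tested did not overlap between the genotypes at this day. These ratios are of transcripts, in which Mmp2 alone makes 50.4% to 67.3% of the proteinase sum, and they measure neither protein nor activity.

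**Figure D4:**
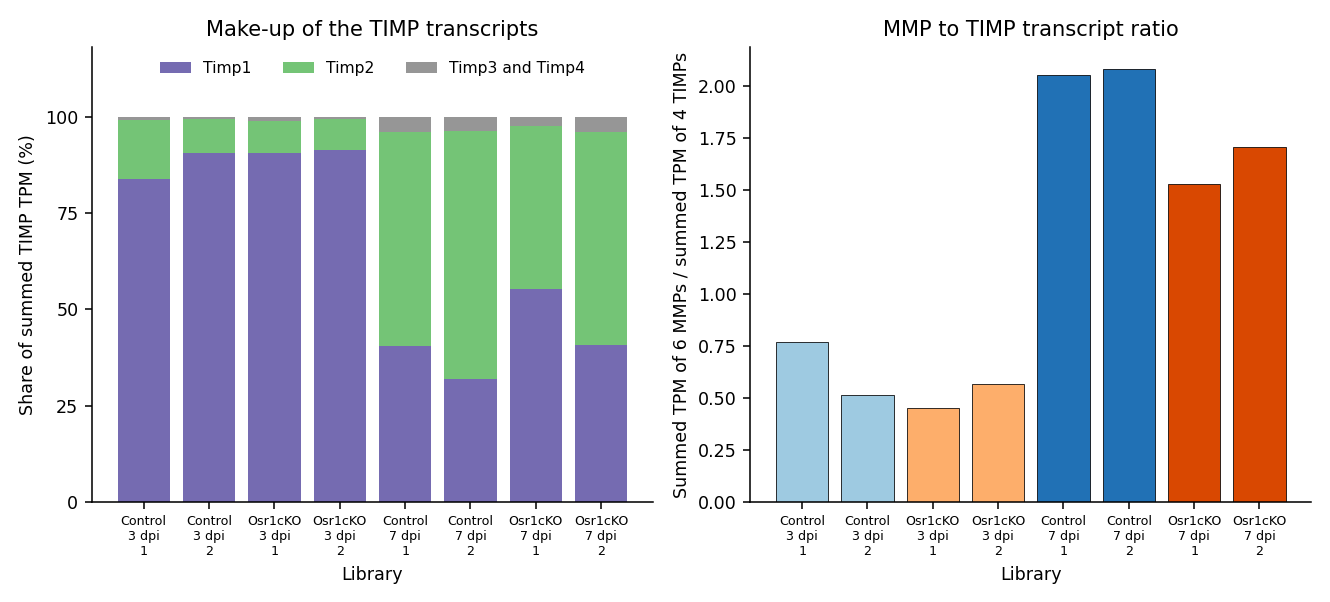
Left, share of summed TIMP TPM held by each gene in each library (stacked bars, %); right, summed TPM of the 6 MMPs over that of the 4 TIMPs (bars). Timp1 holds 83.8% or more at 3 dpi and 55.1% or less at 7 dpi. The ratio is under 1 at 3 dpi and over 1.5 at 7 dpi. It is lower in the Osr1cKO than in the control libraries of 7 dpi, a difference that was not tested.

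Loss of Osr1 was the second question. At 3 dpi none of the 9 genes was called at a fold change over 1.2 and an unadjusted p under 0.05, where 6.27% of 15699 genes were, and none had an unadjusted p under 0.05 with limma or with limma-voom on recovered fragments. The median log2 fold change of the 9 genes was 0.17, against 0.01 over all genes. Summed FAP markers were lower in Osr1cKO at this day (5556 and 4651 TPM against 8071 and 7248) and summed tenocyte markers higher, and their part in the values was not tested. Most of the FAP difference was in Ly6a (Sca-1), at 5407 and 4232 TPM in control and 3058 and 2020 in Osr1cKO libraries. The other FAP markers summed to 2664 and 3016 against 2498 and 2631 TPM, and of the 8 markers 4 had a positive and 4 a negative log2 fold change, with a median of -0.09. Of the 9 genes tested, Timp1 was the only one whose libraries did not overlap between the genotypes, which held for 36.2% of all genes tested. Its Osr1cKO libraries (4444 ± 154 TPM) were just above the second control library, and the first control library was far below all others. The log2 fold change was 0.52 (SE 0.38, unadjusted p = 0.23 by limma), and it was 0.95 and called without the second and 0.08 without the first control library. The direction for Mmp2, Mmp3, Mmp9, Mmp13, Mmp14, Mmp19, Timp2 and Timp3 at this day turned when 1 library was left out. Without the first Osr1cKO library Mmp3 (0.83) and Mmp13 (-1.36) were called, and without the second Timp3 (1.14), while Mmp3 was then at -0.36 and Mmp13 at 0.17.

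At 7 dpi none of the 9 genes was called at an adjusted p under 0.1, with limma or with limma-voom, and by that rule 11 of 16578 genes were (0.0664%). The study, which used DESeq2 at the same thresholds, reported far more genes at this day. With the same fold and p under 0.05 before adjustment, Timp1 and Mmp9 were higher and Mmp3 was lower in Osr1cKO, where 5.33% of all genes were higher and 5.81% lower. These shares are 884 and 964 genes, against 2282 and 468 with deposited TPM left unscaled, when Mmp3 no longer and Mmp13 newly had an unadjusted p under 0.05. limma-voom gave 4 of the 9 an unadjusted p under 0.05, Mmp13 being the fourth. The libraries of 5 genes, Mmp3, Mmp9, Mmp13, Mmp19 and Timp1, did not overlap between the genotypes, as was so for 53.5% of all genes. The median log2 fold change of the 9 genes was -0.03, against 0.01 over all genes.

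The difference in Timp1 was 0.67 (SE 0.20, adjusted p = 0.32 by limma), both Osr1cKO libraries being higher than both controls (1430 ± 333 against 810 ± 82.2 TPM). It remained between 0.40 and 0.94 when each library was left out, with adjusted p between 0.14 and 0.78 over all alternatives. The study names Timp1 on these same libraries, and the value here is not independent evidence of its direction. Summed tenocyte markers were higher in Osr1cKO at this day (3177 and 3616 TPM against 2417 and 2664), summed myofiber markers lower (36.2 and 37.9 against 60.0 and 59.6 TPM) and summed macrophage markers 51.1 and 69.9 against 45.8 and 51.5 TPM, and their part in the values of Timp1 or any other gene here was not tested.

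Mmp13 differed by 0.76 (SE 0.34, adjusted p = 0.43 by limma), with the lower Osr1cKO library (56.3 TPM) just above the higher control (53.9 TPM). It passed the threshold with the replicate number as a block (adjusted p = 0.097, same size) and without the second control library (1.14), and its adjusted p ran from 0.091 to 0.86 over the alternatives. Mmp9 was higher by 0.46 (SE 0.15, adjusted p = 0.34 by limma) and Mmp3 lower, at -0.40 (SE 0.11, adjusted p = 0.31). Leaving deposited TPM unscaled moved the median of all genes by 0.10 at this day, and the values of Mmp2, Mmp14, Timp2 and Timp3, between -0.11 and -0.03 when scaled, became 0.02 to 0.10. These genes did not pass the test under either scaling.

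**Figure D5:**
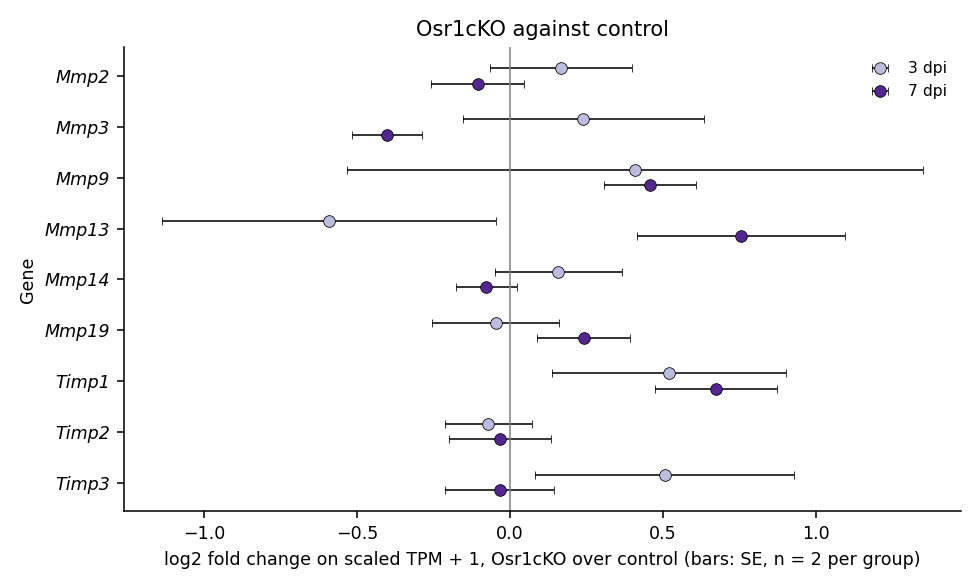
Log2 fold change of Osr1cKO over control on scaled TPM + 1 for the 9 genes tested at 3 and 7 dpi (points; bars, SE; 2 libraries per group). Timp1 is to the right of 0 at both days (0.52 and 0.67), Mmp13 is at -0.59 and 0.76, and Mmp2, Mmp14 and Timp2 lie within 0.17 of 0.

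Whether the genotype difference changed between the days was tested as an interaction. No gene of 17371 passed an adjusted p under 0.05 with limma or limma-voom, and 6.94% had an unadjusted p under 0.05 with limma. None of the 9 genes was among these by either tool. Their interaction values ran from -0.69 (SE 0.48) for Mmp3 to 1.32 (SE 0.77) for Mmp13.

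Of the 17 other Mmp genes, 8 had a mean TPM of at least 1 and 7 were under 1 TPM in every library. Mmp23, of a small MMP that lacks the usual cysteine switch, was the most abundant at 115 to 175 TPM and was not called in any comparison. Mmp11 (stromelysin-3) had 44.1 and 19.6 TPM in control and 22.5 and 20.6 in Osr1cKO libraries at 3 dpi, and 42.3 and 49.6 against 35.2 and 40.2 at 7 dpi, with a log2 fold change between the genotypes of -0.40 (SE 0.10, adjusted p = 0.30 by limma) at 7 dpi. Of the 10 tested between the days, Mmp12, Mmp16 and Mmp25 rose in controls and Mmp10, Mmp12 and Mmp25 in Osr1cKO, and none fell. Of all genes tested 21.2% rose and 24.0% fell in controls, and 17.4% and 23.5% in Osr1cKO. Mmp12, the gene of macrophage elastase, had at most 0.0999 TPM at 3 dpi and 0.397 to 1.21 TPM at 7 dpi, so its value of 0.60 in controls on log2(TPM + 1) moved to as much as 4.56 under other settings. Mmp16, encoding a membrane-bound MMP, rose by 0.86 (adjusted p = 0.037 by limma) in controls. Mmp25, another membrane-bound MMP, rose by 0.73 and 0.82. The control call of Mmp16 was lost without the first control library of 3 dpi (0.61) or either of 7 dpi (0.70 and 1.05), with no filter on low values (0.78) and in a fit on the 4 control libraries (0.85), and that of Mmp12 without the second of 3 dpi (0.53) or of 7 dpi (0.44). Mmp25 was no longer called in controls without the second 7 dpi library (0.64), nor in Osr1cKO without the second of 3 dpi (0.71) or the first of 7 dpi (0.67), nor in either genotype with no filter (0.67 and 0.79). Mmp15 and Mmp17 stayed at 0.538 to 2.13 TPM, Mmp27 at 1.51 to 7.87 TPM and Mmp28 at 2.19 to 5.18 TPM, without a call.

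Mmp10, of the same cluster as Mmp3, had the smallest unadjusted p between the genotypes at 7 dpi of the Mmp and Timp genes tested. Its TPM was 0.326 and 1.96 in control and 2.89 and 0.931 in Osr1cKO libraries at 3 dpi, and 3.232 and 1.9996 against 9.60 and 11.2 at 7 dpi. Both Osr1cKO libraries of 7 dpi were above all other libraries, on 159 and 185 fragments against 60 and 38 in the controls. The log2 fold change at 7 dpi was 1.57 (SE 0.21, unadjusted p = 4.39e-04, adjusted p = 0.18 by limma). It was called with limma-voom (1.89, adjusted p = 0.043) and without either control library (1.83 and 1.31), with adjusted p between 0.0062 and 0.63 over the alternatives. A heat map among the study's figures includes Mmp10, drawn from these libraries, so its direction is no independent evidence. Between the days Mmp10 rose by 1.96 (SE 0.46, adjusted p = 0.014 by limma) in Osr1cKO, a call lost without the second 3 dpi library (1.44) or either 7 dpi library (2.04 and 1.90) of that genotype, with the replicate block (1.96, adjusted p = 0.0514) and with no filter on low values (1.92).

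Proteases and inhibitors that work beside the MMPs at the cell surface were counted from a list of 28 genes, of which 26 were tested. Between the days 8 rose and 3 fell in controls, where 21.2% and 24.0% of all genes tested did, and 7 rose and 4 fell in Osr1cKO, against 17.4% and 23.5% of all. Serpine2 (protease nexin-1) rose by 1.70 and 1.36, Ctsk (the collagen-cutting cathepsin K) by 1.60 and 1.30, and Fap (fibroblast activation protein, a surface serine protease) by 2.31 and 1.23, each in controls and in Osr1cKO. For these 3 genes the adjusted p by limma was at most 0.000982 in either genotype. They were named for their small p in the day comparisons.

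Fap was the only gene of that list called between the genotypes, at 3 dpi, where the rule used unadjusted p and 6.27% of all genes were called. None was called at 7 dpi, where the rule used adjusted p. By limma 9 of the 26 genes had an unadjusted p under 0.05 at 7 dpi, 3 higher and 6 lower in Osr1cKO. Of all 16578 genes tested at that day, 2101 had one. The 3 dpi TPM of Fap was 24.8 and 30.5 in control and 46.3 and 46.7 in Osr1cKO libraries. Its log2 fold change at that day was 0.74 (SE 0.16, unadjusted p = 0.0051, adjusted p = 0.77 by limma). Its 7 dpi TPM was 127 and 139 against 110 and 129, with a value of -0.29 (SE 0.09, adjusted p = 0.33 by limma), and the genotypes overlapped. The test of that change between the days gave -1.07 (SE 0.19, unadjusted p = 7.94e-04, adjusted p = 0.39 by limma).

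Finally, genes whose pattern over the 8 libraries was most like that of Timp1 or Mmp2 were listed by Pearson correlation of log2(TPM + 1), out of 14681 genes with a mean of at least 1 TPM. For Timp1 these were Cdc42ep5, Cnbp, Tmem14c, Pdap1 and Srprb, with r from 0.996 to 0.997. For Mmp2 these were Agap1, Slc17a5, Rnf144a, Mcc and Fosb, with r from 0.991 to 0.995. The points fall into the days, 4 libraries each, and share the step between them. Within the days the likeness can be seen in Srprb, of the signal recognition particle receptor, with 85.8 and 133 TPM in control and 138 and 138 in Osr1cKO libraries at 3 dpi and 48.3 and 43.8 against 64.9 and 57.1 at 7 dpi, the first control library being the low one of 3 dpi as for Timp1.

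The other members lay on other chromosomes, Mmp2 on chromosome 8, Mmp9 on 2, Mmp14 on 14, Mmp19 and Timp3 on 10, Timp1 on X, Timp2 on 11 and Timp4 on 6. Timp1, Timp3 and Timp4 each lie within a synapsin gene on the opposite strand, namely Syn1, Syn3 and Syn2. These reached 3.45, 0.136 and 0.592 TPM at most, so that in the case of Timp1 and Timp3 the host was far lower than the member. Mmp19 overlaps Tmem198b on the opposite strand, with at most 39.4 TPM, and Timp2 overlaps Cep295nl on the same strand, with at most 7.68 TPM. Whether strand was used in counting is not given in the sources used here, and reads in the overlaps cannot be assigned with certainty.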

How the data were processed

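Per the methods and labels, alignment was to mm10 by STAR and normalization by DESeq2, and the authors deposited TPM values by gene symbol, 1 table a library. The counter, its annotation and its use of strand are not given in the sources used here. The labels give 1 instrument and read length and the methods a pair, and which day ran on which was not settled. Of 55385 entries, 109 repeats of a symbol were left out. Fragments were recovered from TPM and GENCODE mouse exon lengths for 53281 symbols, with between 98.7% and 98.9% of values under 50 fragments within 0.02 of a whole number. Before testing, libraries were brought to one scale by a mean of log ratios trimmed by 0.3 at each end. Genes that had at least 10 fragments in 2 libraries and 15 in all (without a length, a mean TPM of 1) were fitted with lmFit and eBayes with a trend in limma 3.58.1 (R 4.3.3) on log2(TPM + 1), within each day between genotypes and over all 8 libraries between days, with Benjamini-Hochberg adjusted p. The thresholds at each day follow the study's methods, which tested with DESeq2 and not with limma. SDs, sums and ratios use deposited TPM (Python 3.11.15, pandas 2.3.3, NumPy 2.4.6). The fit was tried on simulated data with large changes in genes of many fragments only, so small changes and low genes were not covered. The limma-voom alternative used the recovered fragments. Genes named were all 10, the other Mmp genes tested, those of the proteolysis list called between genotypes or among the 4 of smallest p between days (1 is not reported here), Osr1 and the 5 genes most like Timp1 and Mmp2. The genes and lists were chosen with earlier results of these data known. At 7 dpi a library pools mice, so p-values measure the spread between libraries only.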

Additional observations from a re-analysis of the deposited data

Results flagged for a closer look

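Plau, the gene of urokinase, a plasminogen activator, was flagged because both Osr1cKO libraries were above both controls at 3 dpi and below both at 7 dpi. Its TPM was 652 and 751 in control and 854 and 883 in Osr1cKO libraries at 3 dpi, and 927 and 998 against 719 and 825 at 7 dpi. The difference between the days was -0.81 on the log2 scale (SE 0.21, unadjusted p = 0.0057, adjusted p = 0.59 by limma), which does not pass the adjustment over all genes. Groups of 2 libraries were not searched for outliers.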

How the results depend on the processing

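Of 58 values of named genes, 28 kept their direction and side of the threshold under every alternative run, and over 816 recomputed values 742 did so, 34 lost and 12 gained the threshold and 28 changed sign. With 2 libraries per group, 1 library often decided a value, and genes near 0 changed sign most.

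With deposited TPM unscaled at 7 dpi, Mmp2 between genotypes became 0.024, Mmp14 0.052, Timp2 0.097 and Timp3 0.094, and all genes called fell from 11 to 0. Mmp9 between the days in controls was 0.012 with median scaling, 0.060 with a mean TPM of at least 1, and 0.022 and 0.00978 with pseudocounts of 0.1 and 0.5, and in Osr1cKO -0.056 without a filter. Genes of the 10 that fell between the days in Osr1cKO numbered 1 instead of 2 unscaled, with median scaling, with a mean TPM of at least 1 and without a filter. Genes called between genotypes at 7 dpi numbered 0 with a mean TPM of at least 1, without a filter and in a fit over all 8 libraries, 201 with limma-voom and 1848 at an unadjusted p under 0.05, with 2 of the 10 genes then higher and 1 lower. At 3 dpi they numbered 0 at an adjusted p under 0.1 and 1838 in the fit over all 8 libraries. Interaction calls numbered 1 with a mean TPM of at least 1, 30 without a filter and 3 with a pseudocount of 0.1. The cause was not tested.

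Leaving out each library gave 380 to 2804 calls between genotypes at 3 dpi (0 to 1 of the 10 genes higher and 0 to 1 lower), 7 to 497 at 7 dpi (0 to 1 higher), 4670 to 8186 between the days in controls (1 to 2 of the 10 lower), 3849 to 4934 in Osr1cKO (0 to 2 lower) and 0 to 71 interactions. At 3 dpi the values ran from -0.0032 to 0.34 for Mmp2, -0.36 to 0.83 for Mmp3, -0.84 to 1.64 for Mmp9, -1.36 to 0.17 for Mmp13, -0.052 to 0.35 for Mmp14, -0.32 to 0.21 for Mmp19, -0.16 to 0.013 for Timp2 and -0.13 to 1.14 for Timp3. At 7 dpi they ran from -0.20 to 0.13 for Timp2 and -0.31 to 0.23 for Timp3. Between the days Mmp9 ran from -1.28 to 1.27 in controls and -0.80 to 0.80 in Osr1cKO, and Mmp3 from -0.52 to 0.69 in Osr1cKO.

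Replicate numbers are shared by the groups, but nothing says that they pair mice. The correlation of same-numbered deviations was -0.13 at 3 dpi and 0.06 at 7 dpi. With the replicate block, 974 genes were called at 3 dpi and 27 at 7 dpi, Mmp13 (0.76) among them, and 6734 and 5876 between the days, where Timp3 and, of the other Mmp genes, Mmp10 in Osr1cKO were no longer called. A crossed pairing at 3 dpi, added after that correlation was seen, gave 1162 calls, none of the 10 genes. Depth limits Timp4, with at most 17 fragments, and Mmp10 and Mmp13 at 3 dpi.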
